A study of Mus musculus with 4 samples.

Results

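The collagen and laminin chains were taken from the gene table by their symbols: a Col number followed by an a number, or Lama, Lamb or Lamc with a number. This rule found 55 of the 23980 genes, 44 collagen chains and 11 laminin chains. They were split into 17 basement membrane chains (the 6 chains of collagen IV and the 11 laminins), 11 fibrillar collagen chains and 27 other collagen chains. The rule uses symbols only, and no member had a value that the authors' tool marked as failed. Of the 55 chains, 44 reached 1 FPKM (fragments scaled to transcript length and library depth) in at least 1 library and 30 did so in every library.

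The 4 libraries were polyA(+) RNA-seq of FACS-sorted spermatocytes at the leptotene and zygotene (L/Z) stages, where meiosis begins. All mice were F1 hybrids of the strains C57BL6/J and MSM/Ms, 3 to 4 weeks old, and carried no other allele or treatment named in the labels. One library came from a Dnmt3L heterozygote (Dnmt3L_Het) and another from a Pld6 wild type (Pld6_WT), which together formed the control group. The Dnmt3L KO and the Pld6 KO had 1 library each, so no mutant value has a replicate. PLD6 acts in the making of piRNAs and DNMT3L assists de novo DNA methylation in male germ cells. The study compared such libraries for changes in RNA that follow the loss of either gene. Both are knockouts of the whole animal whose germ cells arrest in early meiosis, the labels do not give the number of animals behind a library, and the controls differ in genotype and line. The spread between the controls therefore cannot be told apart from a difference between lines, and the model's p-values measure only that spread.

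Collagens are trimers of chains with long Gly-X-Y repeats. Collagen IV builds the network of basement membranes, fibrillar collagens build the fibres of the interstitial matrix, and other types anchor, link or cap these structures. A laminin is a trimer of an alpha, a beta and a gamma chain that cells bind through integrins and dystroglycan. In the testis, Sertoli cells and peritubular myoid cells together make the basement membrane of the seminiferous tubule, vessels have their own, and spermatocytes lie inside the tubule and are not known as a main source of matrix.

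Between 30439943 (Pld6 KO) and 63875934 (Dnmt3L heterozygote) fragments per library fell in genes. The labels held for the targeted genes: Pld6 had 14 fragments in the Pld6 KO against 1197 in the Pld6 WT, and Dnmt3l had 0 in the Dnmt3L KO against 101 in the Dnmt3L heterozygote, which allows up to 3 fragments. Markers of other cells stood beside the germ cell markers in all libraries. The summed level of 10 L/Z markers, such as Sycp3 and Dmc1, ran from 722 FPKM in the Dnmt3L KO to 2089 FPKM in the Pld6 WT. The summed FPKM of 12 Sertoli markers was 2210 and 2718 in the Dnmt3L heterozygote and KO, and 73.7 and 213 in the Pld6 WT and KO. No Sertoli, peritubular, endothelial, stromal, Leydig or macrophage marker was at 0 in any library.

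The 55 chains took 0.316% (95% exact Clopper-Pearson interval 0.315 to 0.318) of the fragments in the Dnmt3L heterozygote, 0.129% (0.128 to 0.13) in the Pld6 WT, 0.369% (0.368 to 0.371) in the KO of Dnmt3L and 0.453% (0.450 to 0.455) in that of Pld6. These intervals, and those of all ratios below, cover counting error only, since each genotype has 1 library. Reads carried no molecular identifiers, so even this error can be understated. The Pld6 WT library was lowest for the set and also for each of the 3 classes. The median chain was at 2.11 FPKM in the Dnmt3L heterozygote, 1.41 in the Pld6 WT, 2.502 in the KO of Dnmt3L and 3.27 in that of Pld6. Of the 55 chains, 30 had their highest value in the Pld6 KO and 35 their lowest in the Pld6 WT. Of the 14416 genes with a mean FPKM of at least 1, 23.8% were highest in the Pld6 KO and 27.2% lowest in the Pld6 WT. Only 40 of the 55 chains reach that mean, so these sets are unlike. In such bulk libraries, more cells of a type and more RNA per cell cannot be told apart.

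A few stretches next to transcription starts are shown first, because the chains of collagen IV lie head to head and because the other genes shown stand at the top of their class or were called in a mutant. They are RefSeq sequences of GRCm38.p6, the assembly with the coordinates of mm10, in lower case, with CCAAT and GGGCGG or their reverse complements in capitals. The genes shown with 150 bases are Col1a2 (fibrillar, chr6:4505468-4505617, plus strand), Col18a1 (other, chr10:77166531-77166680, minus strand, upstream of the first of its 2 listed starts) and Col24a1 (fibrillar, chr3:145292322-145292471, plus strand), each ending at the base before the start. The last line holds the 22 bases from the start of Col4a2 to that of Col4a1 (chr8:11312805-11312826, written on the plus strand), which are transcribed in opposite directions.
Col1a2: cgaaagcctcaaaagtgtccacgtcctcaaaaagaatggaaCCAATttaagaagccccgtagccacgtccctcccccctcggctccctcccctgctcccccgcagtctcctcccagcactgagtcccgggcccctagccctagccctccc
Col18a1: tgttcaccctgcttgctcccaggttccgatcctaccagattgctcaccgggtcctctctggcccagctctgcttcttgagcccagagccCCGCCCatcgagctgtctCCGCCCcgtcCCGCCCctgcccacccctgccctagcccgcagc
Col24a1: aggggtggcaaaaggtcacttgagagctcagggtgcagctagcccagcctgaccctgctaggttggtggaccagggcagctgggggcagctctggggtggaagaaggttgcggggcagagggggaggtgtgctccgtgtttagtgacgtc
Col4a1-Col4a2: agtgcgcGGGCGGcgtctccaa

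The promoter table held 40 of the 55 chains, with 44 starts. On either strand of the 250 bases before the start, GGGCGG was found at 54.5% of these starts and at 32.7% of the 32851 starts of all genes. CCAAT was found at 31.8% against 33.8%, and TATAAA at 11.4% against 12.4%. The dinucleotide CG, the target of DNA methylation, occurred a median of 8.5 times before the chains' starts and 6 times before all starts, with a range among the chains from 0 to 31. These are matches of letters, and methylation was not analysed here.

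Collagen IV was led by Col4a1 and Col4a2, the chains of the collagen IV found in all basement membranes. Col4a1 was at 39.9 FPKM in the Dnmt3L heterozygote, 15.4 in the Pld6 WT, 40.3 in the KO of Dnmt3L and 76.1 in that of Pld6. Col4a2 was at 26.7, 11.4, 24.7 and 51.7 FPKM in the same order. For both chains the Pld6 KO was highest and the Pld6 WT lowest, and the Dnmt3L KO lay close to its own heterozygote. In the Pld6 line the KO was 4.93-fold (95% counting interval 4.77 to 5.11) above the WT for Col4a1 and 4.54-fold (4.36 to 4.74) for Col4a2. In the Dnmt3L line the KO was 1.01-fold (0.986 to 1.03) and 0.923-fold (0.896 to 0.951) its heterozygote. The Pld6 KO was not more than 2-fold above the Dnmt3L heterozygote, so neither chain was counted as higher than both controls.

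Col4a3 and Col4a4 encode chains of the collagen IV of a few specialised basement membranes, the tubule wall among them. Col4a3 was at 17.2 FPKM in the Dnmt3L heterozygote, 4.16 in the Pld6 WT, 19.8 in the KO of Dnmt3L and 17.5 in that of Pld6. Col4a4 was at 20.9, 5.20, 25.96 and 25.4 FPKM in that order. Their levels were alike in 3 libraries and about 4- to 5-fold lower in the Pld6 WT, so that the controls lay further apart than any mutant lay from the Dnmt3L heterozygote. Col4a5, which joins Col4a3 and Col4a4 in 1 trimer, was at 9.38, 3.42, 11.7 and 10.4 FPKM. Col4a6, its partner in another trimer, was at 1.61, 0.609, 3.03 and 3.20 FPKM. Both were lowest in the Pld6 WT. Col4a6 was 5.25-fold (4.41 to 6.28) above the Pld6 WT in the Pld6 KO and 1.88-fold (1.70 to 2.08) above the heterozygote in the Dnmt3L KO.

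The 6 genes of collagen IV stand in 3 pairs, each transcribed in opposite directions from neighbouring starts. The gene bodies of Col4a1 and Col4a2 on chromosome 8 overlap by 85 bases in RefSeq, those of Col4a3 and Col4a4 on chromosome 1 by 114 bases, and Col4a5 and Col4a6 on chromosome X lie 1274 bases apart. The strand setting of the authors' counting is not given in the sources used here, so reads in the overlaps could belong to either gene. The FPKM ratio of Col4a1 to Col4a2 was 1.49 in the Dnmt3L heterozygote, 1.36 in the Pld6 WT, 1.63 in the KO of Dnmt3L and 1.47 in that of Pld6. That of Col4a3 to Col4a4 was 0.822, 0.80, 0.762 and 0.690. The highest of these ratios was 1.21-fold the lowest for the first pair and 1.19-fold for the second. Over all 435 pairs of the 30 chains at 1 FPKM or more in every library the median of this span was 3.47-fold, and it ran from 1.08-fold to 33.0-fold. A smaller span than that of Col4a3 and Col4a4 was found for 3 pairs. They were Col13a1 with Lamb1 (1.08-fold), Col3a1 with Col6a1 (1.10-fold) and Col4a1 with Col6a3 (1.15-fold). The genes of each of these pairs lie on different chromosomes, so even ratios were not particular to neighbours. The ratio of Col4a5 to Col4a6 was less even, at 5.82 and 5.61 in the controls, 3.85 in the KO of Dnmt3L and 3.26 in that of Pld6. The mutants have 1 library each, so this difference has no replicate check. Col6a1 and Col6a2, neighbours on chromosome 10 with 85161 bases between them, had a ratio of 1.69, 0.714, 2.05 and 1.47 in the 4 libraries.

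**Figure D1:**
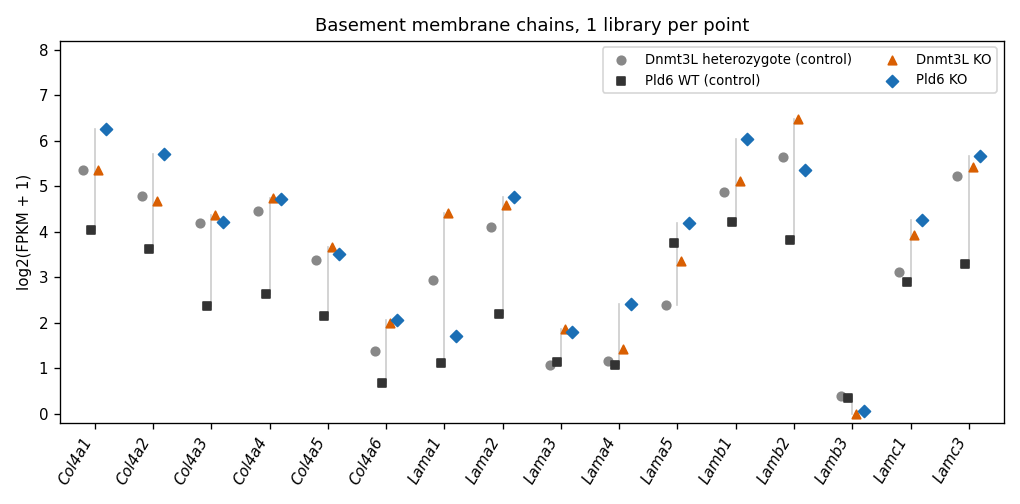
Level of 16 of the 17 basement membrane chains as log2(FPKM + 1), 1 point per library, with a grey line from the lowest to the highest library. The Pld6 WT is lowest for all 6 collagen IV chains, Lama1 stands high only in the Dnmt3L KO and the Dnmt3L heterozygote, and Lama5 is lowest in the Dnmt3L heterozygote.

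Laminin alpha chains carry the sites that cells bind. Lama1, the chain of the first laminin of the embryo and of tubule walls, was at 6.74 FPKM in the Dnmt3L heterozygote, 1.18 in the Pld6 WT, 20.3 in the KO of Dnmt3L and 2.29 in that of Pld6. It was counted as higher in the Dnmt3L KO than in both controls, and was 3.02-fold (2.91 to 3.13) above the heterozygote. The controls themselves were 5.71-fold (5.17 to 6.30) apart for Lama1. The order of its libraries was also that of the summed Sertoli markers, and the part of Sertoli RNA in this value was not tested. Lama1 lies on chromosome 17 from 67697127 to 67822645.

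Lama2, the alpha chain of muscle and peritubular laminins, was at 16.1 FPKM in the Dnmt3L heterozygote, 3.56 in the Pld6 WT, 23.2 in the KO of Dnmt3L and 26.1 in that of Pld6. Both mutants lay above both controls, by 1.44-fold (1.40 to 1.48) and 7.33-fold (6.92 to 7.77) against the control of their own line. Lama5, the widespread adult alpha chain, had another order, with 4.22, 12.6, 9.20 and 17.3 FPKM. It was the alpha chain of highest level in the Pld6 WT and was 0.336-fold (0.321 to 0.351) as high in the Dnmt3L heterozygote. Lama4, the alpha chain of vessel walls, was at 1.25, 1.11, 1.67 and 4.38 FPKM. The Pld6 KO stood apart from 3 libraries at a like level, and Lama4 (chromosome 10, 38965515 to 39110188) was counted as higher than both controls. Lama3, known from epithelia, was at 1.12, 1.22, 2.65 and 2.46 FPKM, with both mutants above both controls.

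Lamb1 and Lamb2 encode the alternative beta chains of most laminins. Lamb1 was at 28.3 FPKM in the Dnmt3L heterozygote, 17.6 in the Pld6 WT, 33.6 in the KO of Dnmt3L and 64.4 in that of Pld6. It was counted as higher in the Pld6 KO than in both controls (chromosome 12, 31265146 to 31329644). Lamb2 was at 48.7, 13.1, 88.5 and 40.2 FPKM and had its highest value in the Dnmt3L KO, 1.82-fold (1.78 to 1.85) above the heterozygote. The ratio of Lamb2 to Lamb1 was thus 1.72 and 2.64 in the Dnmt3L line, where Lamb2 was the higher of the pair, and 0.743 and 0.624 in the Pld6 WT and KO, where Lamb1 was. Lamb3, a chain of skin laminin, stayed at or under 0.315 FPKM, with 78, 43, 0 and 6 fragments.

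Among the gamma chains, Lamc1, the common one, was at 7.68 FPKM in the Dnmt3L heterozygote, 6.44 in the Pld6 WT, 14.3 in the KO of Dnmt3L and 18.3 in that of Pld6. Both mutants lay above both controls, and the Pld6 KO was counted as higher than both (chromosome 1, 153218922 to 153332786). Lamc3, a gamma chain known from the tubule wall of the testis, was at 36.2, 8.86, 42.0 and 50.05 FPKM. It was higher than Lamc1 in each library.

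On the FPKM scale, which allows for length, the laminin mixture differed most in its alpha chains. Lama2 made up 54.8% of the summed alpha FPKM in the Dnmt3L heterozygote, 18.1% in the Pld6 WT, 40.7% in the KO of Dnmt3L and 49.6% in that of Pld6. For Lama5 these shares were 14.3%, 64.0%, 16.1% and 33.0%. For Lama1 they were 22.9%, 6.01%, 35.6% and 4.37%. Lamc3 had 82.5%, 57.9%, 74.6% and 73.2% of the summed FPKM of Lamc1 and Lamc3. A share of RNA does not give the trimers made.

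**Figure D2:**
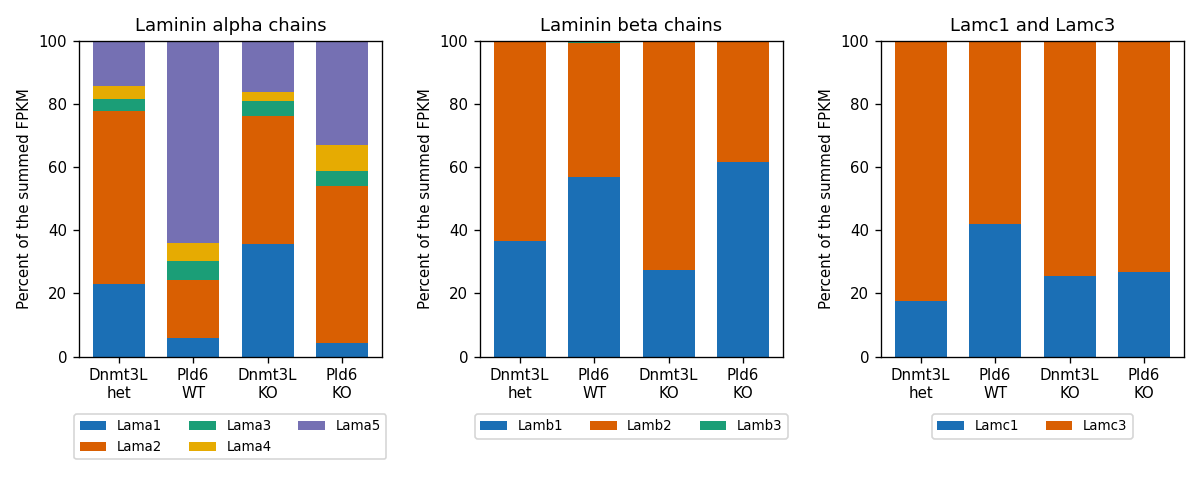
Share of each chain in the summed FPKM of the laminin alpha chains, the beta chains, and Lamc1 and Lamc3 in each library, in percent. Lama5 takes 64.0% of the alpha level in the Pld6 WT and 14.3% in the Dnmt3L heterozygote, and Lamb2 leads the beta chains in the Dnmt3L line only.

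Among the fibrillar chains, those of collagen I and collagen III, the main fibres of connective tissue, had the highest levels. Col1a2 was at 56.5 FPKM in the Dnmt3L heterozygote, 10.6 in the Pld6 WT, 50.7 in the KO of Dnmt3L and 68.5 in that of Pld6. Col3a1 was at 32.8, 5.27, 28.3 and 28.5 FPKM. For both, 3 libraries were close and the Pld6 WT was about 5- to 6-fold lower. Col1a1 was at 19.4, 11.9, 18.7 and 43.0 FPKM and was counted as higher in the Pld6 KO than in both controls (chromosome 11, 94936224 to 94953042). The chains of the collagen I trimer did not keep 1 ratio: Col1a2 to Col1a1 was 2.92 in the Dnmt3L heterozygote, 0.887 in the Pld6 WT, 2.71 in the KO of Dnmt3L and 1.59 in that of Pld6.

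Collagen V starts and limits the growth of collagen I fibrils. Col5a1 was at 4.15 FPKM in the Dnmt3L heterozygote, 10.8 in the Pld6 WT, 8.07 in the KO of Dnmt3L and 21.6 in that of Pld6. Like Lama5, it was lowest in the Dnmt3L heterozygote, and these were the 2 chains counted as lower there than in the Pld6 WT. In both lines the KO was above its control, 1.95-fold (1.84 to 2.06) for Dnmt3L and 2.0-fold (1.92 to 2.09) for Pld6. Col5a2 was at 1.87, 0.819, 1.51 and 3.37 FPKM and Col5a3 at 0.599, 1.22, 0.939 and 2.01 FPKM, both highest in the Pld6 KO.

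Col24a1, a fibrillar chain known from developing bone and cornea, was at 0.429 FPKM in the Dnmt3L heterozygote, 0.0885 in the Pld6 WT, 3.70 in the KO of Dnmt3L and 0.482 in that of Pld6. These levels rest on 193, 25, 1217 and 106 fragments. The Dnmt3L KO was 8.64-fold (7.41 to 10.1) above its heterozygote and stood apart from the other 3 libraries (chromosome 3, 145292472 to 145552013). The remaining fibrillar chains were low. Col11a2, a cartilage chain, was at 1.27, 2.74, 2.48 and 2.29 FPKM. Col27a1 was at 2.29, 1.21, 1.77 and 1.96 FPKM. Col2a1, the main cartilage collagen, was at 2.25 and 1.73 FPKM in the controls and lower in both mutants, at 0.687 in the KO of Dnmt3L and 1.19 in that of Pld6.

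The other chains were led by Col18a1, which encodes a basement membrane proteoglycan and the precursor of endostatin. It was at 57.5 FPKM in the Dnmt3L heterozygote, 6.26 in the Pld6 WT, 95.7 in the KO of Dnmt3L and 23.8 in that of Pld6. It was the member of highest level in both Dnmt3L libraries, and its controls were 9.18-fold (8.67 to 9.73) apart. Col15a1, its relative in the basement membrane of vessels and muscle, was at 2.05, 1.35, 3.73 and 5.95 FPKM. Col15a1 was counted as higher in the Pld6 KO than in both controls (chromosome 4, 47207655 to 47313167).

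Collagen VI forms beaded filaments next to basement membranes. Col6a1 was at 34.3 FPKM in the Dnmt3L heterozygote, 5.24 in the Pld6 WT, 28.6 in the KO of Dnmt3L and 31.1 in that of Pld6. Col6a2 was at 20.3, 7.33, 14.0 and 21.1 FPKM and Col6a3 at 3.69, 1.24, 3.69 and 6.75 FPKM. All were lowest in the Pld6 WT, and so was Col6a4, with 5.17, 1.49, 5.65 and 4.95 FPKM. In the Dnmt3L line the KO was 0.833-fold (0.805 to 0.863) its heterozygote for Col6a1 and 0.688-fold (0.654 to 0.723) for Col6a2.

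The other 4 of the 10 highest chains of this class were Col20a1, Col16a1, Col22a1 and Col13a1. Col20a1, a chain that binds fibril surfaces, was at 3.81 FPKM in the Dnmt3L heterozygote, 5.34 in the Pld6 WT, 0.820 in the KO of Dnmt3L and 3.27 in that of Pld6. It was the 1 member counted as lower than both controls in a mutant, at 0.215-fold (0.181 to 0.255) the heterozygote in the Dnmt3L KO (chromosome 2, 180983323 to 181017545). Col16a1, a linker next to fibrils, was at 6.13, 6.15, 3.21 and 5.92 FPKM, again with the Dnmt3L KO apart from the rest. Col22a1, a chain of tissue junctions, was at 7.22, 9.71, 5.48 and 12.4 FPKM. Col13a1, a transmembrane collagen, was at 2.11, 1.41, 2.502 and 5.08 FPKM.

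The 17 chains of this class outside the highest 10 stayed at or under 3.55 FPKM. In all, 11 members reached 1 FPKM in no library, among them Lamb3, Col6a5, Col9a1, Col9a2, Col10a1, Col11a1, Col12a1, Col14a1, Col19a1 and Col26a1.

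**Figure D3:**
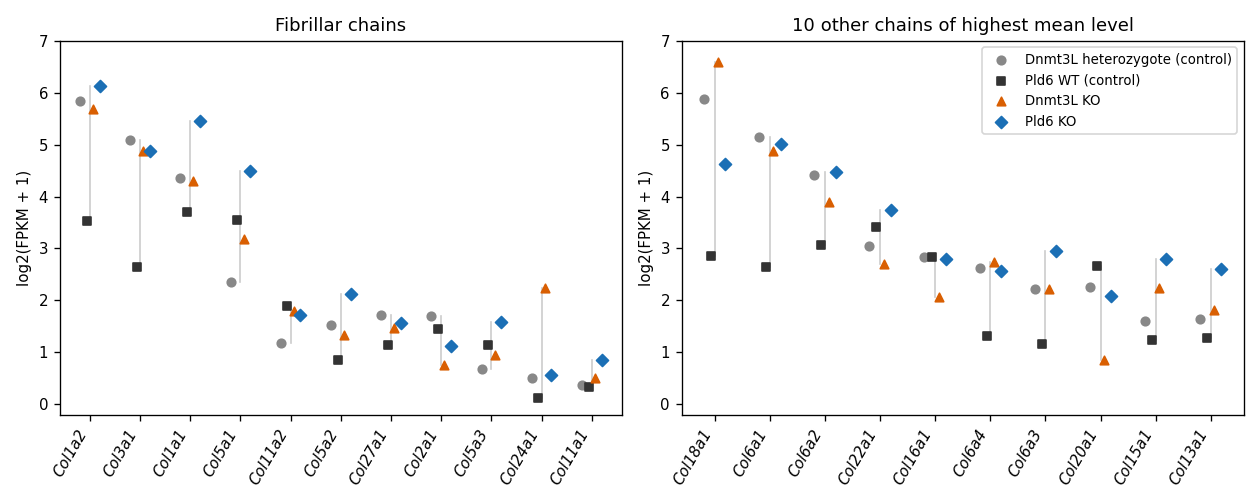
Levels of the 11 fibrillar chains and of the 10 other chains of highest mean FPKM, as log2(FPKM + 1), 1 point per library, with a grey line from the lowest to the highest. Col24a1 stands apart in the Dnmt3L KO at 3.70 FPKM, Col20a1 is lowest there at 0.820 FPKM, and the Pld6 WT is lowest for Col1a2, Col3a1 and the collagen VI chains.

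The first comparison asked how far the controls lay apart. A member was counted as higher where its FPKM + 1 was more than 2-fold above the other library. The Dnmt3L heterozygote was higher than the Pld6 WT for 17 members, 9 of them basement membrane chains, 2 fibrillar and 6 other chains, and lower for 2 (Lama5 and Col5a1). Of all genes 11.1% were higher and 3.77% lower by this rule, and of the 14416 genes with a mean FPKM of at least 1, 17.6% were higher. The 17 higher members were among the 40 members above that mean. The median log2 difference of the 55 members was 0.37, against 0 for all genes, and 1.16 for the basement membrane chains.

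The second comparison set each mutant against both controls, which the mutants share. In the Pld6 KO 5 of the 55 members were higher than both controls (Lamb1, Lamc1, Lama4, Col1a1 and Col15a1) and 0 were lower. By the same rule 5.41% of all genes were lower and 1.04% higher. In the Dnmt3L KO 2 members were higher (Lama1 and Col24a1) and 1 was lower (Col20a1), beside 2.14% and 5.78% of all genes. Among genes with a mean FPKM of at least 1 the shares of higher genes were 1.51% for the Pld6 KO and 3.29% for the Dnmt3L KO, while 5 and 2 of 40 such members were higher. For the Dnmt3L KO the share of members is thus near the background. The counts rest on the choice of control. Against the Pld6 WT alone 23 and 20 members were higher in the Pld6 KO and Dnmt3L KO. Against the Dnmt3L heterozygote alone they were 7 and 2. Of all genes, 4.69% were higher in the Pld6 KO against the Pld6 WT and 3% in the Dnmt3L KO against its heterozygote. No such share was taken for the 20 and the 7, so no result about the chains is drawn from them.

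The median log2 change of the basement membrane chains, as (mutant FPKM + 1) over (mean control FPKM + 1), was 0.96 in the Pld6 KO and 0.77 in the Dnmt3L KO, and 15 of 17 chains lay above 0 in each. For the fibrillar chains it was 0.56 and 0.17, and for the other chains 0.44 and 0.01. The median of all genes was 0 in both. Of the 14416 genes with a mean FPKM of at least 1, 6675 lay above 0 in the Pld6 KO and 7068 in the Dnmt3L KO. Not all of the 17 chains reach that mean. Both mutants were set against the same control mean. For the Dnmt3L heterozygote against the Pld6 WT, 14 of the 17 basement membrane chains lay above 0. Medians also differed by transcript length over the whole table. Over genes with a mean FPKM of at least 1 and a longest transcript of 6000 bases or more the median was 0.24 in the Pld6 KO and 0.23 in the Dnmt3L KO, against -0.42 and -0.29 for genes under 2000 bases, where no member with such a mean lies. The 21 members of 6000 bases or more with such a mean had medians of 0.90 and 0.53. The median longest transcript was 6046 bases for the members and 3103 bases for these genes. The part of transcript length in the class medians was not tested.

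The third comparison held the line fixed: each KO was set against the control of that line, and the 2 contrasts have no library in common. In the Pld6 line 23 members were more than 2-fold higher in the KO than in the WT and 0 were lower, beside 4.69% and 6.46% of all genes and 7.41% higher among genes with a mean FPKM of at least 1. The 23 were 12 of 17 basement membrane chains, 4 of 11 fibrillar and 7 of 27 other chains. In the Dnmt3L line 2 members were higher (Lama1 and Col24a1) and 1 was lower (Col20a1), beside 3% and 8.22% of all genes. No member was counted as higher in both lines, and 119 of the 14416 genes with a mean FPKM of at least 1 were, so that this 0 is near the background. The median log2 change of the basement membrane chains was 1.38 in the Pld6 line and 0.29 in the Dnmt3L line, of the fibrillar chains 0.52 and -0.044, and of the other chains 0.39 and -0.020. All genes had a median of 0 in both lines.

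By sign alone, 31 members were above 0 in both lines, 15 in the Pld6 line only, 2 in the Dnmt3L line only, and 7 were below 0 in both. For the 14416 genes with a mean FPKM of at least 1 these counts were 5231, 2031, 2540 and 4473. Only 40 of the 55 members reach that mean, so the sets compared here are unlike. Of the 17 basement membrane chains, 15 were above 0 in both lines, Col4a2 in the Pld6 line only, and Lamb3 in neither. With its sign kept, the log2 change was higher in the Pld6 line for 46 of the 55 members and for 7316 of those 14416 genes. These counts include members that fell more in the Dnmt3L line, such as Col20a1 (-0.57 in the Pld6 line and -1.40 in the Dnmt3L line). Among the 9 others, with the higher signed change in the Dnmt3L line, were Lama1 (1.46 against 0.60), Lama5 (0.97 against 0.43), Lama3 (0.79 against 0.64) and Col24a1 (1.72 against 0.45). The difference between the lines has no replicate and was not tested.

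**Figure D4:**
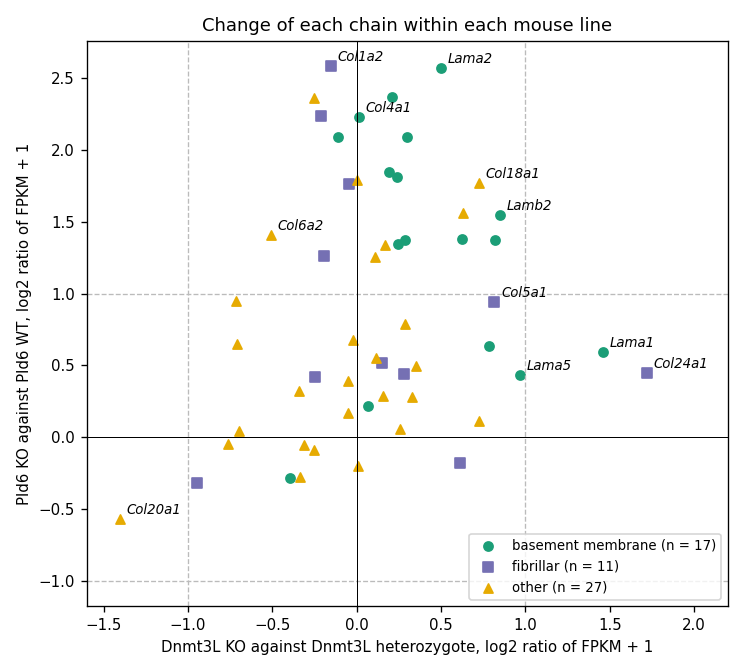
Each of the 55 chains by its log2 ratio of FPKM + 1 in the Dnmt3L KO against its heterozygote (horizontal) and in the Pld6 KO against its WT (vertical), with dashed lines at the 2-fold threshold. The 23 chains above the upper dashed line all lie between the vertical dashed lines, and Lama1 and Col24a1 are the 2 chains to the right of them.

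The count models took their spread from the 2 controls, since neither mutant has a replicate. In edgeR's quasi-likelihood test all 55 members passed the filter on low counts, and 0 reached a Benjamini-Hochberg adjusted p of 0.05 in either mutant, beside 0% of the 18657 genes tested. The smallest adjusted p of a member by edgeR was 0.180 for Col19a1 in the Pld6 KO and 0.269 for Col24a1 in the Dnmt3L KO. At an unadjusted p under 0.05 edgeR gave 2 higher members (Col19a1 and Lama4) and 0 lower in the Pld6 KO, beside 0.547% and 7.41% of all genes. In the Dnmt3L KO it gave 2 higher (Col19a1 and Col24a1) and 3 lower (Col20a1, Col9a1 and Lamb3), beside 1.09% and 7.72%. DESeq2 called 1 member higher in the Pld6 KO, Col19a1 (adjusted p 0.0200), beside 0.0808% of genes higher and 5.11% lower. In the Dnmt3L KO it called Col24a1 higher (adjusted p 0.0109), beside 0.0896% higher and 4.82% lower. Under edgeR's alternatives the adjusted p ran from 0.0904 to 0.202 for Col19a1 and from 0.121 to 0.311 for Col24a1.

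Col19a1, a minor chain known from muscle and neurons and named here after its values were seen, was at 0.0625 FPKM in the Dnmt3L heterozygote, 0.0617 in the Pld6 WT, 0.298 in the KO of Dnmt3L and 0.832 in that of Pld6. It had 42, 26, 146 and 273 fragments. The controls were alike, both mutants lay above them, and the Pld6 KO was 13.5-fold (9.01 to 21.0) above the Pld6 WT. At these levels a pseudocount of 1 FPKM hides the ratio, and Col19a1 was not counted by the 2-fold rule. It lies on chromosome 1 from 24257683 to 24587922.

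The order of the 4 libraries was compared with that of the marker lists, over the 40 members with a mean FPKM of at least 1. Among these, 10 had the order Pld6 KO, Dnmt3L KO, Dnmt3L heterozygote, Pld6 WT from high to low: Col4a1, Col4a6, Lama2, Lama4, Lamb1, Lamc1, Lamc3, Col6a3, Col13a1 and Col15a1. Of all genes above that mean, 2.69% had it, and no marker list did by its summed FPKM. By its median FPKM the stromal fibroblast list did, at 11.4, 9.06, 6.40 and 2.04 FPKM in that order of libraries. Its markers Dcn, Lum, Tcf21 and Pi16, taken singly, did not. A further 6 members had the order Pld6 KO, Dnmt3L heterozygote, Dnmt3L KO, Pld6 WT (Col1a1, Col1a2, Col4a2, Col5a2, Col6a2 and Col23a1), beside 1.83% of genes. By its median FPKM the peritubular list had this order too, at 49.9, 44.2, 27.9 and 11.5 FPKM. The order Dnmt3L KO, Dnmt3L heterozygote, Pld6 KO, Pld6 WT was that of the summed Sertoli, Leydig and macrophage lists. It was found for 4 members (Lama1, Lamb2, Col18a1 and Col6a4) and 13.7% of genes. For the Leydig list it rests on close sums of 333 and 331 FPKM in the Dnmt3L KO and heterozygote. The Leydig medians had the heterozygote above the Dnmt3L KO, at 37.6 and 28.5 FPKM. By its summed FPKM the peritubular list had the Dnmt3L heterozygote first and the Pld6 KO next. That order was shared by Col3a1, Col6a1 and Col27a1, beside 1.26% of genes. The summed stromal list had the order Dnmt3L heterozygote, Dnmt3L KO, Pld6 KO, Pld6 WT, shared by Col28a1, beside 3.42% of genes. The summed endothelial list had the order Pld6 KO, Pld6 WT, Dnmt3L heterozygote, Dnmt3L KO, shared by Col22a1, beside 4.99% of genes.

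The marker lists also differed between the libraries. Summed over 6 peritubular myoid markers (Acta2, Myh11 and others) the level was 634 FPKM in the Dnmt3L heterozygote, 142 in the Pld6 WT, 326 in the KO of Dnmt3L and 598 in that of Pld6. Over 6 stromal fibroblast markers it was 131, 20.6, 126 and 121 FPKM, and over 7 Leydig markers 331, 25.9, 333 and 237 FPKM. These 3 lists were lowest in the Pld6 WT. Over 6 endothelial markers, such as Pecam1 and Cdh5, it was 28.6, 32.3, 21.6 and 61.6 FPKM. Of these, 4 were counted as higher in the Pld6 KO than in both controls, beside 1.04% of all genes. The same held for 1 of the 7 Leydig markers and for 0 of the Sertoli, peritubular, stromal and macrophage markers. Macrophage markers summed to 61.4, 18.9, 118 and 46.8 FPKM. Spermatid markers, such as Prm1 and Tnp1, summed to 6855, 119, 32.7 and 9.41 FPKM, and pachytene markers to 910, 496, 48.9 and 59.3 FPKM. The part of these cells in the levels of the chains was not tested. The Pld6 WT library was lowest in 5 of the 6 lists of somatic cells and highest in L/Z markers.

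**Figure D5:**
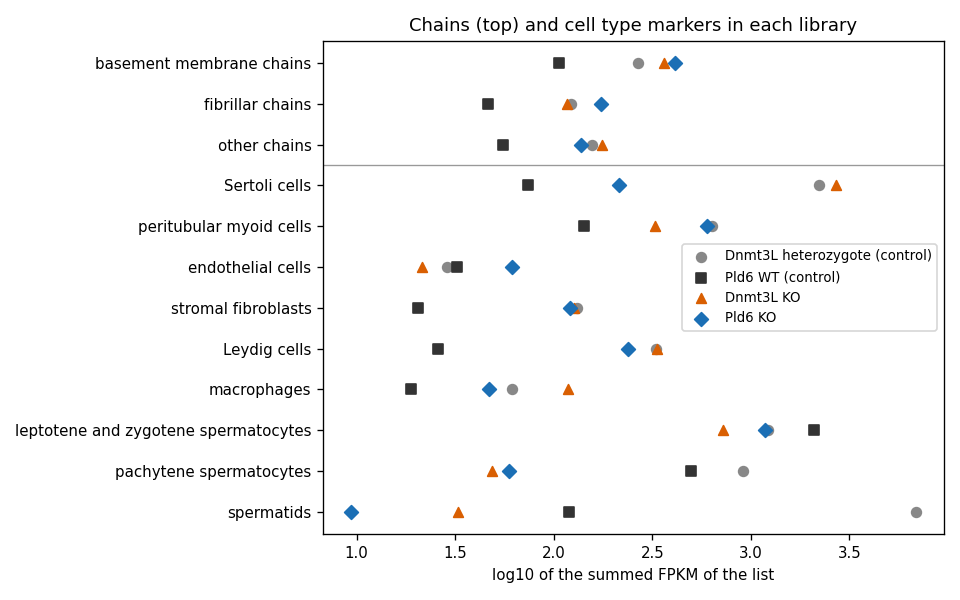
Summed FPKM of the 3 classes of chains (above the grey line) and of the 9 marker lists (below it) in each library, on a log10 scale. The Pld6 WT is lowest for the 3 classes and for 5 of the 6 somatic lists, while the Sertoli list separates the Dnmt3L heterozygote and Dnmt3L KO from both Pld6 libraries.

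Other genes of matrix assembly were taken from 5 lists. Their counts stand beside the shares of all genes given above for each mutant against both controls, 1.04% higher in the Pld6 KO and 2.14% in the Dnmt3L KO, or 1.51% and 3.29% of genes with a mean FPKM of at least 1. Of the 10 other basement membrane components, 2 were higher in the Pld6 KO than in both controls (Hspg2 and Nid2) and 0 lower, and none was counted in the Dnmt3L KO. Hspg2, which encodes perlecan, was at 11.9 FPKM in the Dnmt3L heterozygote, 16.1 in the Pld6 WT, 17.0 in the KO of Dnmt3L and 36.5 in that of Pld6. Nid2, a nidogen that links laminin to collagen IV, was at 4.84, 7.23, 8.04 and 16.0 FPKM. Both stood highest in the Pld6 KO and were not lowest in the Pld6 WT. Sparc, a collagen-binding glycoprotein, was at 591, 68.3, 745 and 266 FPKM, in the order of Col18a1. Fbln1, a fibulin, was at 9.99, 21.5, 12.4 and 33.9 FPKM, lowest in the Dnmt3L heterozygote as Lama5 and Col5a1 were.

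Of the 15 collagen modifying and folding enzymes, 1 was higher in the Pld6 KO than in both controls (P4ha2, a prolyl hydroxylase subunit, at 7.001, 6.58, 10.02 and 15.0 FPKM) and none was lower. None was counted in the Dnmt3L KO. P4hb, the partner subunit, which also acts on other proteins, was at 257, 342, 224 and 438 FPKM. Ppib, a prolyl isomerase, was at 180, 128, 163 and 130 FPKM, and Glt25d1, a collagen galactosyltransferase, at 79.6, 36.0, 104 and 55.7 FPKM. None of these was counted in either mutant.

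Of the 13 genes of secretion, trimming and cross-linking, Bmp1, a procollagen protease, and Loxl2, a cross-linking oxidase, were higher in the Pld6 KO than in both controls. Bmp1 was at 3.81, 3.21, 6.95 and 9.45 FPKM and Loxl2 at 0.996, 1.33, 1.61 and 5.43 FPKM. None was lower, and none was counted in the Dnmt3L KO. Sec23a, a coat protein of export vesicles, was at 30.5, 37.4, 31.2 and 30.5 FPKM and Mia3, which loads procollagen into them, at 13.9, 14.2, 16.5 and 17.9 FPKM, so these export genes were close across libraries. Pcolce, an enhancer of procollagen trimming, was at 29.3, 8.36, 30.5 and 32.9 FPKM, lowest in the Pld6 WT.

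Of the 13 receptors, Itga3, an integrin chain that binds laminin, was higher in the Pld6 KO than in both controls, at 3.03, 3.23, 3.73 and 8.64 FPKM. Itga6, another laminin-binding integrin chain, was higher in the Dnmt3L KO, at 7.99, 6.18, 24.4 and 16.3 FPKM, with both mutants above both controls. Itgb1, their common partner, was at 96.9, 78.1, 112 and 147 FPKM. Dag1, which encodes dystroglycan, was at 30.7, 28.4, 49.1 and 49.0 FPKM. Ddr1, a collagen-binding kinase, was at 40.8, 3.87, 69.4 and 14.4 FPKM, in the order of the Sertoli list.

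Of the 12 matrix proteases and inhibitors, Mmp2, a gelatinase, was higher in the Pld6 KO than in both controls, at 3.50, 4.47, 4.29 and 17.6 FPKM, and none was lower or counted in the Dnmt3L KO. Timp2, an inhibitor, was at 115, 8.01, 160 and 32.9 FPKM, Timp3 at 44.5, 7.47, 45.9 and 28.7 FPKM, and the membrane protease Mmp14 at 30.3, 2.99, 54.3 and 11.3 FPKM. All 3 were lowest in the Pld6 WT. In edgeR's test 0 of the 61 tested genes of the 5 lists passed in either mutant, and DESeq2 also called 0. At an unadjusted p under 0.05 edgeR gave Loxl2 and Mmp2 as higher in the Pld6 KO and Itga6 as higher in the Dnmt3L KO.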

How the data were processed

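Stranded polyA(+) libraries were sequenced as 50-bp single-end reads. The submitters' notes name TopHat, Cuffdiff and mm10, and no versions. The deposited table gives an estimated count of fragments per gene (expected counts, unscaled) and FPKM, scaled by the authors' tool to length and depth. Its columns of scaled fragments were not used. Changes are on the log2(FPKM + 1) scale, which understates changes of low genes, and a call needs a ratio of FPKM + 1 above 2. Fragments were rounded for edgeR 4.0.16 (TMM, filterByExpr, 3 groups, 1 residual degree of freedom, from the controls) and DESeq2 1.42.0, with adjusted p under 0.05. The fits were tested on simulated data. Intervals of ratios are exact conditional binomial ones. Positions, promoters and lengths came from RefSeq GRCm38.p6 and GENCODE M21, matched by symbol (positions and lengths for all 55 members, promoters for 40).

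Named with all values were each basement membrane chain but 1 that is not reported here, fibrillar chains at 1 FPKM in any library, the 10 highest other chains, called members, and per pathway list the 3 genes of highest mean and called genes. Col19a1, Col9a1 and Col23a1 were named after their values were seen. Members and lists were chosen with earlier results of these data known.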

Additional observations from a re-analysis of the deposited data

Results flagged for a closer look

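For the fibrillar chains the median log2 change was 0.52 in the Pld6 KO against the Pld6 WT and -0.044 in the Dnmt3L KO against its heterozygote, and for the other chains it was 0.39 and -0.020. These were picked out because the class medians lay on opposite sides of 0 in the 2 lines. In the Dnmt3L line they were close to 0, with 5 of 11 fibrillar and 13 of 27 other chains above 0. Each line has 1 library per genotype, and the difference was not tested.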

How the results depend on the processing

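Leaving out the Dnmt3L heterozygote (control replicate 1) or the Pld6 WT (control replicate 2) gave 7 to 23 higher members in the Pld6 KO, from 5, and 2 to 20 in the Dnmt3L KO, from 2. The 23 and the 20 are without the heterozygote, the alternative that moved these counts most. No share of all genes was taken for the 7 and the 20. Lower members were 0 to 3 in the Pld6 KO and 1 in the Dnmt3L KO. With a pseudocount of 0.1 FPKM the counts were 9 higher and 1 lower (Pld6 KO) and 6 higher and 5 lower (Dnmt3L KO). Between the controls (Dnmt3L heterozygote against Pld6 WT) they were then 23 higher, from 17, and 4 lower. At 3-fold they were 0 higher (Pld6 KO), 1 higher and 0 lower (Dnmt3L KO), and 10 higher and 0 lower between the controls. With TMM-scaled fragments, not divided by length, they were 8 higher (Pld6 KO), 5 higher and 3 lower (Dnmt3L KO), and 22 higher and 4 lower between the controls. DESeq2 called 1 member in each mutant, while edgeR with DESeq2 size factors or without the filter called 0. No share of all genes was taken for the counts with the 0.1 FPKM pseudocount, at 3-fold or with TMM-scaled fragments. No result about the chains is drawn from those counts. The cause of these shifts was not tested.

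The class medians kept their sign, except that without the Pld6 WT the Dnmt3L KO medians were -0.044 (fibrillar, 0.32 without the heterozygote) and -0.020 (other, 0.28). Those ranges were 0.66 to 1.38 and 0.29 to 1.32 for the basement membrane chains in the Pld6 KO and Dnmt3L KO. In the Pld6 KO they were 0.48 to 0.52 for the fibrillar and 0.052 to 0.39 for the other chains. The fibrillar median in the Pld6 KO was 1.03 with a pseudocount of 0.1 FPKM and 0.96 with TMM-scaled fragments. Leaving out a control leaves edgeR 0 residual degrees of freedom, so that test was not run. No paired analysis of a single mutant with a test was possible because each line has 1 library per genotype, and with a term for line the separate mutant effects leave 0 residual degrees of freedom. For Lamb3 and Col9a1, with 0 fragments in the Dnmt3L KO, depth limits what a fold can show.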
